A study of Mus musculus with 5 samples.

Results

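The 10 genes described here are effectors and direct transcriptional targets of Wnt/beta-catenin signalling, namely Axin2, Lef1, Tcf7, Tcf7l1, Nkd1, Nkd2, Lgr5, Znrf3, Ctnnb1 and Sp5. They were chosen by symbol as known parts of the pathway, with earlier results of these data known, and all 10 were found among the 27729 genes of the deposited tables. A gene is called tested if at least 1 of its libraries reached 10 expected counts, which held for 9 of the 10 and for 13346 genes in all. Sp5 did not.

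The study changed mouse embryonic fibroblasts (MEFs) of the ICR strain to a serum-free medium, called 6C in the labels and 5C in the paper, and sequenced RNA before the change (day 0) and after 2, 5, 10 and 14 days in it. Each of the 5 time points is 1 library, which leaves no test between days, and each interval below covers counting error only. The day 0 cells had grown in medium with fetal bovine serum. Per the paper's introduction, the later medium holds DMEM/F12 with N2 supplement, bFGF, LIF, vitamin C and 2-mercaptoethanol, with no Wnt ligand or inhibitor of glycogen synthase kinase in the list. MEFs are a primary mixture of cells from whole embryos without the head and inner organs, and per the paper's methods a brief trypsin step and washes took away loosely attached cells, described there as neurogenic, before the medium was changed. In such bulk RNA fewer cells of a type and less RNA per cell cannot be told apart. The labels' treatment text puts the last harvest 1 day later than the day 14 of the sample label, which is used here.

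In canonical Wnt signalling, a ligand bound to Frizzled and LRP receptors stops a cytoplasmic destruction complex from degrading beta-catenin, which then enters the nucleus and works with TCF/LEF proteins on target genes. Several targets act back on the pathway, among them the scaffold Axin2, the Dishevelled-binding Naked proteins Nkd1 and Nkd2, and the ubiquitin ligase Znrf3, which removes Frizzled from the cell surface. The R-spondin receptor Lgr5 acts against Znrf3, and Sp5 is a transcription factor that is itself a frequent Wnt target.

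TCF/LEF proteins bind DNA at a core that reads CTTTGA or CTTTGT. Both were searched on both strands in the 250 bases before each annotated start in RefSeq (GRCm38.p6), together with the longer CTTTGAT, which contains CTTTGA. Windows were found for 8 of the 10 genes, 13 windows in all, and not for Lgr5 and Znrf3. The longer CTTTGAT is in 3.21% of 32851 such windows over all genes, CTTTGA in 13.8% and CTTTGT in 16.5%. The windows of 3 targets are shown because their RNA had such different courses: Nkd2 had the largest change of the 10 genes, Axin2 is the usual readout of the pathway, and Sp5 stayed at or under the detection floor. They are written 5′ to 3′ on the strand of the gene, with both 6-base cores, in either orientation, in capitals.
Nkd2, chr13:73847632-73847881, minus strand: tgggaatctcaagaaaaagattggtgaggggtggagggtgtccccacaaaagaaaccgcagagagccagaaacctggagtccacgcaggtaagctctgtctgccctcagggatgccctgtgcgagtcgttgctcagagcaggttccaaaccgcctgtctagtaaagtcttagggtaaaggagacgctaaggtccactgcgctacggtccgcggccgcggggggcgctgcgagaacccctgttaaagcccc
Axin2, chr11:108920099-108920348, plus strand: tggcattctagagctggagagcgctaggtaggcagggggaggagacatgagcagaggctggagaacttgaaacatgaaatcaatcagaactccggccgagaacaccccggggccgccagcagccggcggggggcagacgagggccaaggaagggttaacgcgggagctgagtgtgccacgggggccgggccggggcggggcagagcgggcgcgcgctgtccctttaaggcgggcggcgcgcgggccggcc
Sp5, chr2:70474673-70474922, plus strand: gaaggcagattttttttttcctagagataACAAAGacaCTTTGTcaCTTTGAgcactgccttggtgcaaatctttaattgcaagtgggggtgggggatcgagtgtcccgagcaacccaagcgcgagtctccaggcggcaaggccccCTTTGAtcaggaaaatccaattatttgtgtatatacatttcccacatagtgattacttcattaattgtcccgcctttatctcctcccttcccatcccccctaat

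The Sp5 window held 4 matches, 1 of which extends to CTTTGAT, while the Nkd2 and Axin2 windows held 0. The windows of Nkd1, Ctnnb1 and Tcf7 and 3 of the 4 windows of Lef1 also held 0, the fourth Lef1 window held 3 and that of Tcf7l1 held 1. A match describes letters in a window and not a bound site.

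The libraries held between 2253748 (day 2) and 3890334 (day 0) expected counts. Levels are given as normalized counts, which are expected counts divided by the TMM library size. A floor of 3 counts corresponds to 5.43 normalized counts on day 2 and to between 2.14 and 2.97 on the other days. On day 2 a single gene, Gm42418, took 4.79% of the counts, and without it and Lars2 in the scaling the counts of the 9 tested genes past 2-fold were the same. Changes are log2 ratios of normalized counts to day 0 with a pseudocount of 1, past 2-fold means beyond 1 or below -1, and "rose" and "fell" are kept for changes past 2-fold whose 95% counting interval excludes no change.

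Across the time course the 10 genes did not move as 1 block (plot of normalized counts by day). Nkd2, Axin2, Lgr5 and Tcf7 rose and were still above day 0 on day 14, Lef1 fell to 0 counts, and Ctnnb1, the gene of beta-catenin itself, stayed within 2-fold of day 0 in normalized counts, though not in TPM. Of the 9 tested genes, 6 had their lowest level on day 2, the shallowest library, and 5 their highest on day 10. Axin2, Lgr5, Nkd1 and Znrf3 had 1, 1.03, 2 and 2 expected counts on day 2, under the floor of 3. The day 2 change of Tcf7l1 was within counting error (-0.13, -0.56 to 0.29). The share of all tested genes with these lowest and highest days was not computed.

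**Figure D1:**
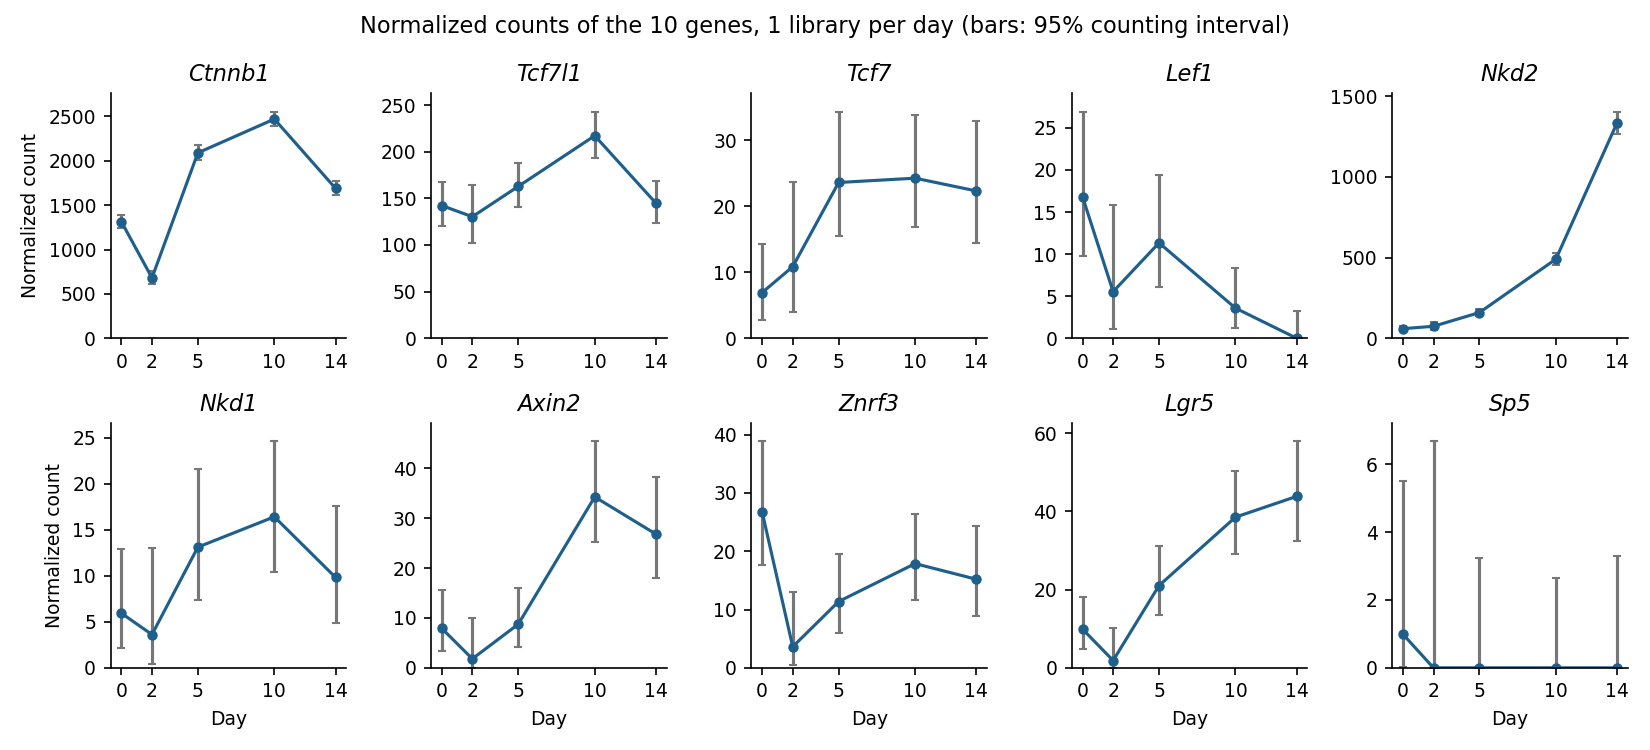
Normalized counts of the 10 genes against the day in the medium, 1 panel per gene with its own linear axis from 0 and 1 library per point, with exact 95% Poisson intervals as bars. Nkd2 climbs from 59.4 to 1335 between days 0 and 14, Lef1 ends at 0, and Sp5 has 1 count on day 0 and 0 later.

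On day 2, 0 of 9 tested genes were past 2-fold higher, against 15.2% of all tested genes, and 4 were past 2-fold lower, against 13.1%. These 4 were Axin2, Lef1, Lgr5 and Znrf3, and Znrf3 alone had an interval that excludes no change, against 10.1% of all tested genes that were lower by this stricter rule and 11.6% that were higher. On day 5, 4 were higher (Tcf7, Nkd1, Nkd2 and Lgr5), against 20.2%, and 1 was lower (Znrf3), against 13.6%. By the stricter rule 2 were higher (Tcf7 and Nkd2), against 17.2%, and 1 was lower, against 12.9%. On day 10, 5 were higher (Axin2, Tcf7, Nkd1, Nkd2 and Lgr5), against 28.7%, and 1 was lower (Lef1), against 22.3%. On day 14, 4 were higher (the same genes without Nkd1), against 24.5%, and Lef1 was the 1 lower gene, against 19.9%. All the calls on days 10 and 14 had intervals that exclude no change, which among all tested genes held for 26.7% higher and 21.8% lower on day 10 and for 22.1% and 18.9% on day 14. The median change of the 9 genes was -0.95, 0.67, 1.33 and 0.64 on days 2, 5, 10 and 14, beside -0.03, 0.05, 0.14 and 0.07 for all tested genes. Relative to genes of like length it was 0.54 on day 10 and 0.18 on day 14, and in TPM 1.96 and 1.24.

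Between days 10 and 14, Nkd2 was the 1 gene past 2-fold higher, against 4.73% of all tested genes, and Lef1 the 1 past 2-fold lower, against 8.33%, with both Lef1 values near the floor. By the stricter rule 1 was higher (Nkd2), against 4%, and 0 were lower, against 6.7%. The median change of the 9 genes over this step was -0.34, beside 0.02 for all tested genes.

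**Figure D2:**
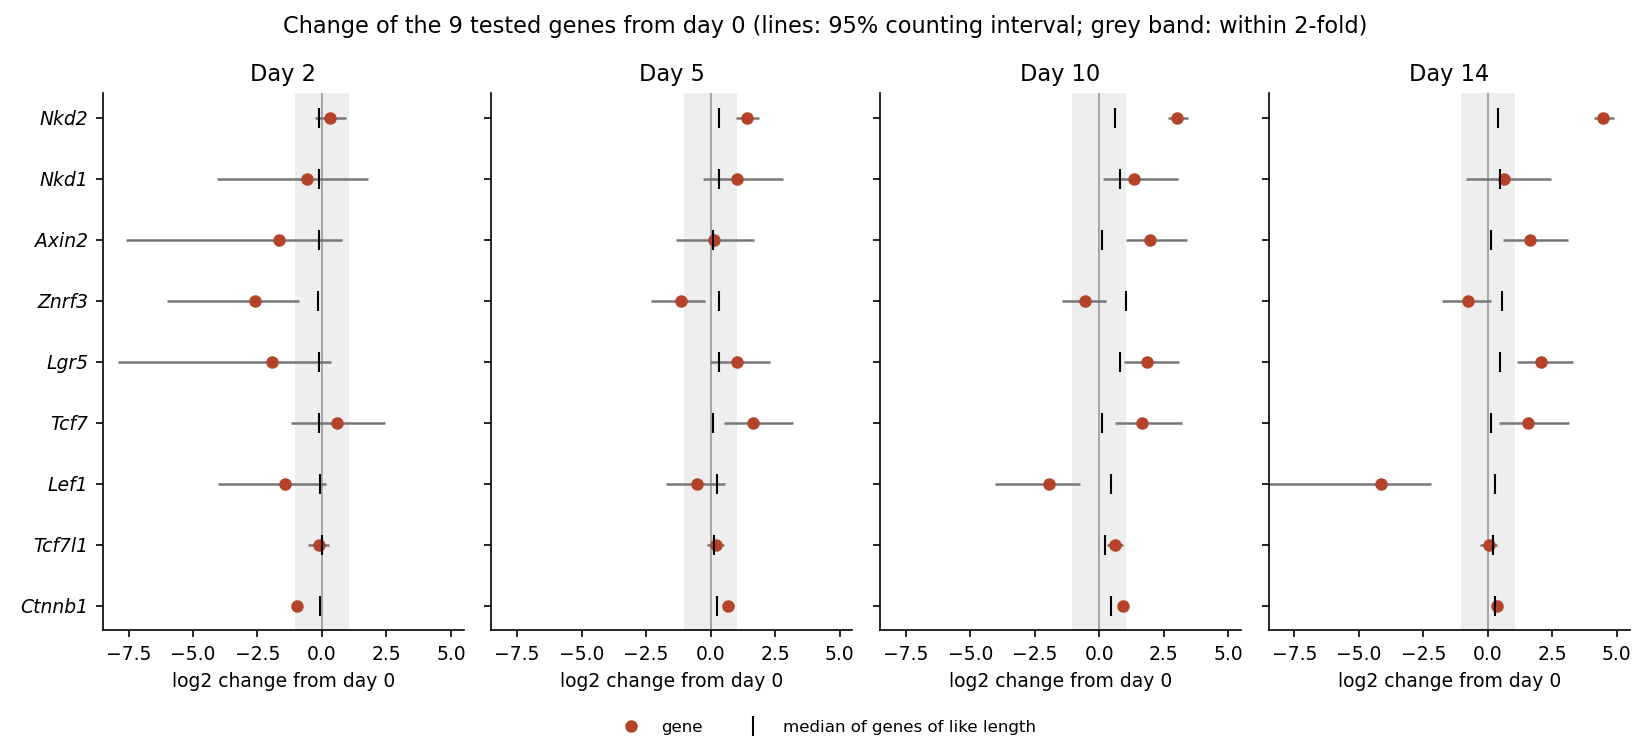
Log2 change from day 0 of the 9 tested genes in 4 panels, 1 for each later day, with 95% counting intervals (lines), the range within 2-fold (grey band) and the median change of genes of like length (black ticks). The Lef1 point on day 14 stands for 0 counts and its place depends on the pseudocount, and its interval runs off the axis. Nkd2 is farthest to the right on days 10 and 14.

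Ctnnb1 (ENSMUSG00000006932, chr9:120929216-120960507, plus strand, GRCm38) encodes beta-catenin. In order of time its libraries held 1314, 681, 2090, 2471 and 1689 normalized counts. Its lowest value was on day 2 and its highest on day 10, with log2 changes of -0.95 (95% counting interval -1.12 to -0.78), 0.67 (0.57 to 0.77), 0.91 (0.82 to 1.00) and 0.36 (0.26 to 0.46). Each of the 4 intervals excludes no change and each change is within 2-fold. On the TPM scale, which divides by gene length, Ctnnb1 ran from 135 on day 0 through 58.1, 355 and 596 to 321, and it was past 2-fold on all 4 later days. On that scale the median of all tested genes itself moved by -0.20, 0.61, 1.09 and 0.78.

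Of the TCF/LEF genes, Tcf7l1 (ENSMUSG00000055799, chr6:72626378-72789254, minus strand), known mainly as a repressor of Wnt targets in the absence of beta-catenin, had the steadiest level. Its normalized counts were 142, 130, 163, 217 and 145 in order of time. No change in normalized counts was past 2-fold, and only that of day 10 had an interval without 0 (0.61, interval 0.32 to 0.90). By day 14 it was back at its day 0 level within counting error (0.03, -0.31 to 0.36). In TPM it had 16.5, 12.6, 31.4, 64.0 and 32.7, with changes of 0.89, 1.90 and 0.95 on days 5, 10 and 14, so that on this scale day 10 was past 2-fold and day 14 was not back at the start.

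Tcf7 (ENSMUSG00000000782, chr11:52252371-52283014, minus strand), which encodes TCF1, a factor with a beta-catenin binding domain, was low at the start. It had 6.93, 10.9, 23.6, 24.3 and 22.3 normalized counts on the 5 days, from 7, 6, 27, 34 and 25 expected counts. The 3 late libraries lay close together, above the first 2. It rose 3.11-fold on day 5, 3.19-fold on day 10 and 2.94-fold on day 14, the last a log2 change of 1.56 (0.44 to 3.14).

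Lef1 (ENSMUSG00000027985, chr3:131110471-131224356, plus strand), both a partner of beta-catenin and a target, went the other way. Its normalized counts were 16.8, 5.54, 11.3, 3.58 and 0, from 17, 3.06, 12.96, 5.01 and 0 expected counts. Days 2 and 5 had intervals that include no change. Day 10 was lower by a log2 change of -1.96 (-4.03 to -0.74). Day 14 had 0 counts, and the upper limit of its log2 change was -2.19. With 3 counts put in place of that 0 the fold would be 6.27, which leaves out the counting error of day 0. In TPM, also with a pseudocount of 1, the changes were 0.12, -0.78 and -1.65 on days 5, 10 and 14. On that scale day 10 was within 2-fold, but Lef1 had 2.13 TPM on day 0 and 0.82 on day 10, where a pseudocount of 1 shrinks a change. The median of all tested genes in TPM moved by 1.09 on day 10.

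The shares of the 4 TCF/LEF genes of the genome, with Tcf7l2 added to the 3 above, were also compared within each library, where no scaling between libraries enters. Their summed TPM does depend on such scaling, and from the first library to the last it was 25.0, 24.1, 52.2, 105 and 56.7. In TPM the median of all tested genes itself moved by -0.20, 0.61, 1.09 and 0.78 on days 2, 5, 10 and 14. Tcf7l1 held the largest share on every day, between 52.1% and 65.9%, and Tcf7l2 the next largest, between 21.6% and 40.5%. Tcf7 went from 3.96% on day 0 to 10.3% on day 14, and Lef1 from 8.53% to 0%, so that the order of these 2 low genes turned round between day 0 and the later days.

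In expected counts, Lef1 held 7.46% of the 4 genes' counts on day 0 (exact 95% interval 4.40% to 11.7%), 0.982% on day 10 (0.320% to 2.28%) and 0% on day 14 (up to 1.24%). These intervals do not overlap between day 0 and the 2 last days. Tcf7 held 3.07% on day 0 (1.24% to 6.22%) and 8.47% on day 14 (5.56% to 12.3%), whose intervals overlap narrowly. Tcf7l2 went from 26.3% (20.7% to 32.5%) to 36.6% (31.1% to 42.4%), and Tcf7l1 from 63.2% (56.5% to 69.4%) to 54.9% (49.0% to 60.7%), with overlapping intervals for both.

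**Figure D3:**
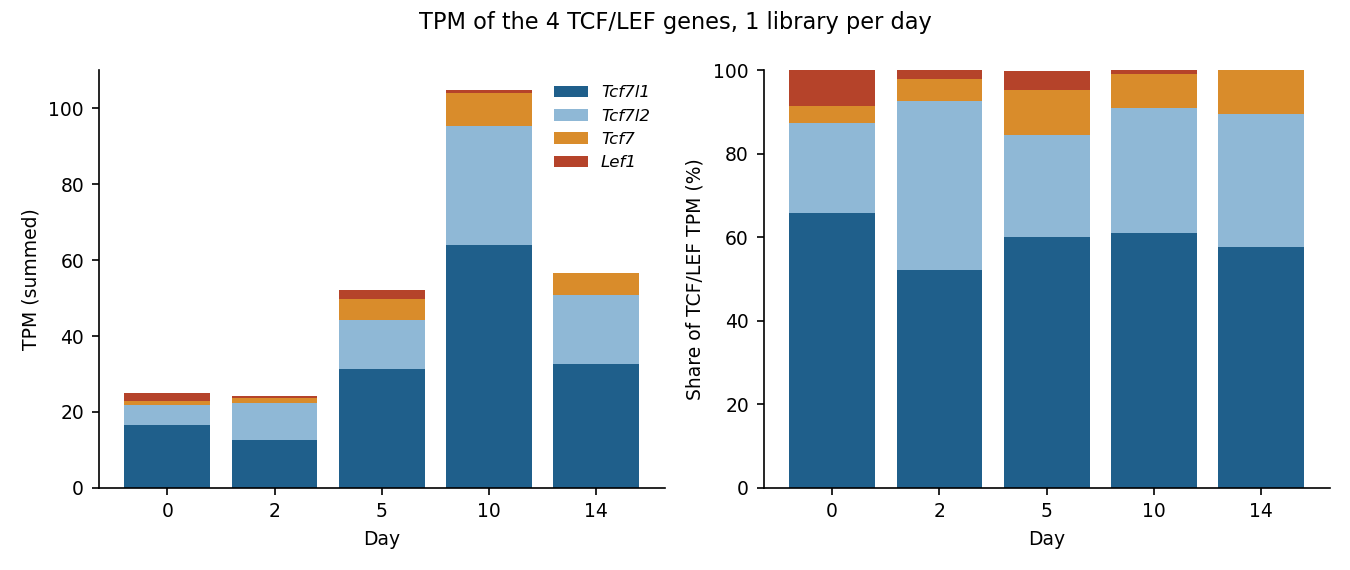
Summed TPM of the 4 TCF/LEF genes in each of the 5 libraries (left), which depends on scaling between libraries, and their shares of that sum in percent, stacked to 100 (right). Tcf7l1 is the largest part of every bar, and the Lef1 part shrinks from 8.53% on day 0 to 0% on day 14 while that of Tcf7 goes from 3.96% to 10.3%.

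Among the feedback inhibitors, Nkd2 (ENSMUSG00000021567, chr13:73818534-73847631, minus strand), a myristoylated Dishevelled-binding protein, had the largest change of the 10 genes. It had 59.4, 74.2, 159, 491 and 1335 normalized counts from the first library to the last. Every library was above the one before it. The change on day 2 was within counting error (0.32, -0.29 to 0.92), and the later log2 changes were 1.41 (1.00 to 1.87), 3.03 (2.66 to 3.45) and 4.47 (4.12 to 4.89), so that Nkd2 rose 8.14-fold by day 10 and 22.1-fold by day 14. It rose a further 2.72-fold between days 10 and 14 (1.44, 1.31 to 1.58).

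Set against the genome, 2.37% of all tested genes had a larger increase than Nkd2 on day 14, 6.99% on day 10, and 2.11% between days 10 and 14. Among genes of like length the share on day 14 was 2.77%. In TPM it went from 5.20 on day 0 through 5.40, 23.6 and 103 to 219. On day 0, 30.0% of all 27729 genes had a higher TPM than Nkd2, and on day 14 2.91% did. By day 14 it was second only to Ctnnb1 (321 TPM) among the 10 genes.

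Its paralogue Nkd1 (ENSMUSG00000031661, chr8:88521354-88594884, plus strand) stayed near the lower limit of these libraries. It had 6, 2, 15, 23 and 11 expected counts, or 5.94, 3.62, 13.1, 16.4 and 9.83 normalized counts. It peaked on day 10, its 1 day with an interval that excludes no change (1.33, 0.13 to 3.05), and on day 14 the interval ran from -0.83 to 2.45 around 0.64. On day 14 Nkd2 stood at 219 TPM and Nkd1 at 1.47 TPM.

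Axin2 (ENSMUSG00000000142, chr11:108920349-108950783, plus strand), a scaffold of the destruction complex and a widely used pathway readout, was scarce until day 5. Its normalized counts were 7.92, 1.81, 8.75, 34.3 and 26.8, from 8, 1, 10, 48 and 30 expected counts. The last 2 libraries stood above the first 3. Axin2 rose 3.96-fold on day 10 (1.98, 1.02 to 3.41) and 3.12-fold on day 14 (1.64, 0.60 to 3.10), and those 2 days did not differ beyond counting error (-0.34, -1.06 to 0.33). In TPM the values were 1.37, 0.26, 2.35, 8.21 and 8.05. RSEM's length for Axin2 was 3306 bases on day 10 and between 2045 and 2157 on the other days, so its TPM on day 10 was divided by a longer transcript mixture.

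Znrf3 (ENSMUSG00000041961, chr11:5276324-5444847, minus strand) did not follow the other feedback genes. Its normalized counts were 26.7, 3.62, 11.4, 17.9 and 15.2, from 27, 2, 13, 25.0 and 17 expected counts. Day 0 was the highest library and day 2 the lowest. It fell on day 2 (-2.59, -6.00 to -0.89, from 2 counts) and on day 5 (-1.16, -2.31 to -0.23), and on days 10 and 14 the changes of -0.55 and -0.78 had intervals that include 0. The day 5 change was within 2-fold in TPM (-0.31) and with a pseudocount of 5 (-0.95).

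Lgr5 (ENSMUSG00000020140, chr10:115450311-115587780, minus strand), the R-spondin receptor and a stem cell marker in several epithelia, had 9.90, 1.86, 21.0, 38.5 and 43.8 normalized counts on the 5 days. The expected counts behind them were 10, 1.03, 24.0, 53.9 and 49.0. The lowest library was day 2 and the 2 highest were days 10 and 14. Lgr5 rose 3.63-fold on day 10 (1.86, 0.97 to 3.10) and 4.11-fold on day 14 (2.04, 1.15 to 3.29), while on day 5 its interval ran from -0.03 to 2.31.

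Sp5 (ENSMUSG00000075304, chr2:70474923-70477729, plus strand) had 1 expected count on day 0 and 0 on each later day. All 5 values are at or under the floor of 3 counts, and no fold is given.

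Gene length moved with these changes. When all tested genes were split into 10 groups by length, the median change on day 10 was -1.47 in the shortest group and 1.04 in the longest, and on day 14 -1.04 and 0.56. The 9 tested genes lie in the fifth to the tenth group, whose medians on day 10 were 0.10 for Axin2 and Tcf7, 0.21 for Tcf7l1, 0.46 for Lef1 and Ctnnb1, 0.62 for Nkd2, 0.79 for Nkd1 and Lgr5 and 1.04 for Znrf3. Relative to genes of like length Nkd2 was still at 2.40 on day 10 and 4.06 on day 14. Znrf3, in the longest group, was at -1.60 and -1.33 relative to its group, past 2-fold lower. Its TPM change was 0.40 on day 10 and 0.01 on day 14, beside 1.09 and 0.78 for the median of all tested genes in TPM. Whether Znrf3 was past 2-fold lower on these days thus depended on the scale. The part of RNA quality or library preparation in this length trend was not tested.

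The counts of each gene were also divided by those of Ctnnb1 in the same library, a ratio that needs no scaling between libraries and was chosen after the values were seen. Nkd2 had 4.52, 10.9, 7.62, 19.9 and 79.0 counts per 100 Ctnnb1 counts in the 5 libraries in order of time, and the ratio of day 14 to day 0 was 17.5 (exact 95% interval 13.4 to 23.3). The same ratio of day 14 to day 0 was 3.44 (1.71 to 7.65) for Lgr5, 2.64 (1.18 to 6.67) for Axin2 and 2.51 (1.05 to 6.89) for Tcf7. By day 14 these 4 genes had increased more than Ctnnb1. On day 10 the interval of Tcf7 includes 1 (1.86, 0.81 to 4.99), as does that of Axin2 on day 5 (0.70, 0.25 to 2.03). For Znrf3 it was 0.442 (0.225 to 0.846) and for Lef1, with 0 counts on day 14, the upper limit was 0.171, while the intervals of Tcf7l1 (0.792, 0.621 to 1.01) and Nkd1 (1.29, 0.435 to 4.25) include 1.

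The rest of the pathway was described through 5 lists of 53 further genes, of which 47 were tested. On days 2, 5, 10 and 14, 5, 13, 17 and 14 of the 47 were past 2-fold higher and 11, 5, 3 and 7 past 2-fold lower, and their median change was -0.12, 0.28, 0.59 and 0.41. Among all tested genes 15.2%, 20.2%, 28.7% and 24.5% were higher on these days and 13.1%, 13.6%, 22.3% and 19.9% lower. Relative to genes of like length the 17 higher and 3 lower pathway genes of day 10 became 10 and 6. Of the genes named for the largest changes in these lists, the calls of Apc (0.26 on day 10 and 0.60 on day 14), Lrp5 (0.90 and 0.85), Ccnd1 on day 10 (0.78) and Apcdd1 on day 14 (0.85) ended.

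Of the receptors that receive Wnt ligands, 11 of 12 were tested, and 6 were past 2-fold higher on day 10 and 0 lower. Among all tested genes 28.7% were higher and 22.3% lower. Relative to genes of like length Fzd1 (1.52), Fzd4 (2.61) and Fzd8 (2.11) stayed past 2-fold higher on day 10. Fzd3 (0.61), Fzd10 (0.95) and Lrp5 (0.90) did not. Among those that reached 100 expected counts, Fzd8 had the largest change, with 49.5 normalized counts on day 0, 298 on day 10 and 310 on day 14, a change of 2.57 (2.16 to 3.04) on day 10. Fzd1 went from 145 to 645 and 579, a change of 2.14 (1.90 to 2.41) on day 10. The co-receptor Lrp5 rose by 1.69 (1.42 to 1.99) on day 10 and by 1.31 (1.02 to 1.62) on day 14.

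In the Dishevelled and destruction complex list, 3 of 10 were past 2-fold higher on day 10 and 0 lower, with a median of 0.19. Among all tested genes 28.7% were higher and 22.3% lower, so the higher share is near that of all genes. Relative to genes of like length Dvl3 (3.48) stayed past 2-fold higher, and Apc (0.26) and Apc2 (0.06) did not. Dvl3, 1 of the Dishevelled proteins to which the Naked proteins bind, had 12.1 expected counts on day 0, rose to 155 normalized counts on day 10 (3.59, 2.87 to 4.68) and stood at 52.7 on day 14. The scaffold gene Apc rose by 1.31 (1.05 to 1.59) on day 10 and by 1.16 (0.89 to 1.45) on day 14. The kinase gene Gsk3b stayed within 2-fold on day 10 (0.79), as did Dvl1 on day 14 (0.96).

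Among the nuclear partners and corepressors, 5 of 12 were past 2-fold higher on days 10 and 14 and 1 lower. Among all tested genes 28.7% and 24.5% were higher on these days and 22.3% and 19.9% lower. Tle2, a Groucho-type corepressor that binds TCF/LEF proteins, had 21.8, 254 and 368 normalized counts on days 0, 10 and 14, a change of 4.02 (3.46 to 4.77) on day 14. The coactivator genes Bcl9l and Pygo1 rose by 2.79 (2.37 to 3.31) and 2.68 (2.03 to 3.57) on day 10. On day 14 they were at 1.85 (1.39 to 2.39) and 2.14 (1.45 to 3.05).

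Of the R-spondins, other Lgr receptors and Rnf43, 5 of 7 were tested, and on day 2 1 was past 2-fold higher and 4 lower, on day 10 1 was higher and 1 lower, and on day 14 1 was higher and 2 lower. Among all tested genes 15.2%, 28.7% and 24.5% were higher on these days and 13.1%, 22.3% and 19.9% lower. The higher gene of this list on days 10 and 14 was Lgr4, a relative of Lgr5 with the same ligands. Lgr4 had 65.3, 251 and 190 normalized counts on days 0, 10 and 14, a change of 1.92 (1.56 to 2.34) on day 10. Rnf43, the paralogue of Znrf3, which was chosen for this after its values were seen, had 10.9 normalized counts on day 0 and 0 on day 14.

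The list of other reported targets did not move in 1 direction, with 9 of 12 tested, 2 past 2-fold higher and 1 lower on day 10, and 1 higher and 3 lower on day 14. Among all tested genes 28.7% were higher and 22.3% lower on day 10, and 24.5% and 19.9% on day 14. Myc, a proliferation factor, fell from 502 normalized counts on day 0 to 108 on day 10 (-2.21, -2.49 to -1.95) and 170 on day 14. Apcdd1, a membrane-bound Wnt inhibitor, rose by 2.13 (lower limit 1.47) on day 10 and by 1.03 (0.25 to 1.96) on day 14. The cyclin gene Ccnd1 rose by 1.40 (1.25 to 1.55) on day 10, and the adhesion receptor gene Cd44 fell on day 14 (-1.23, -1.36 to -1.10).

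**Figure D4:**
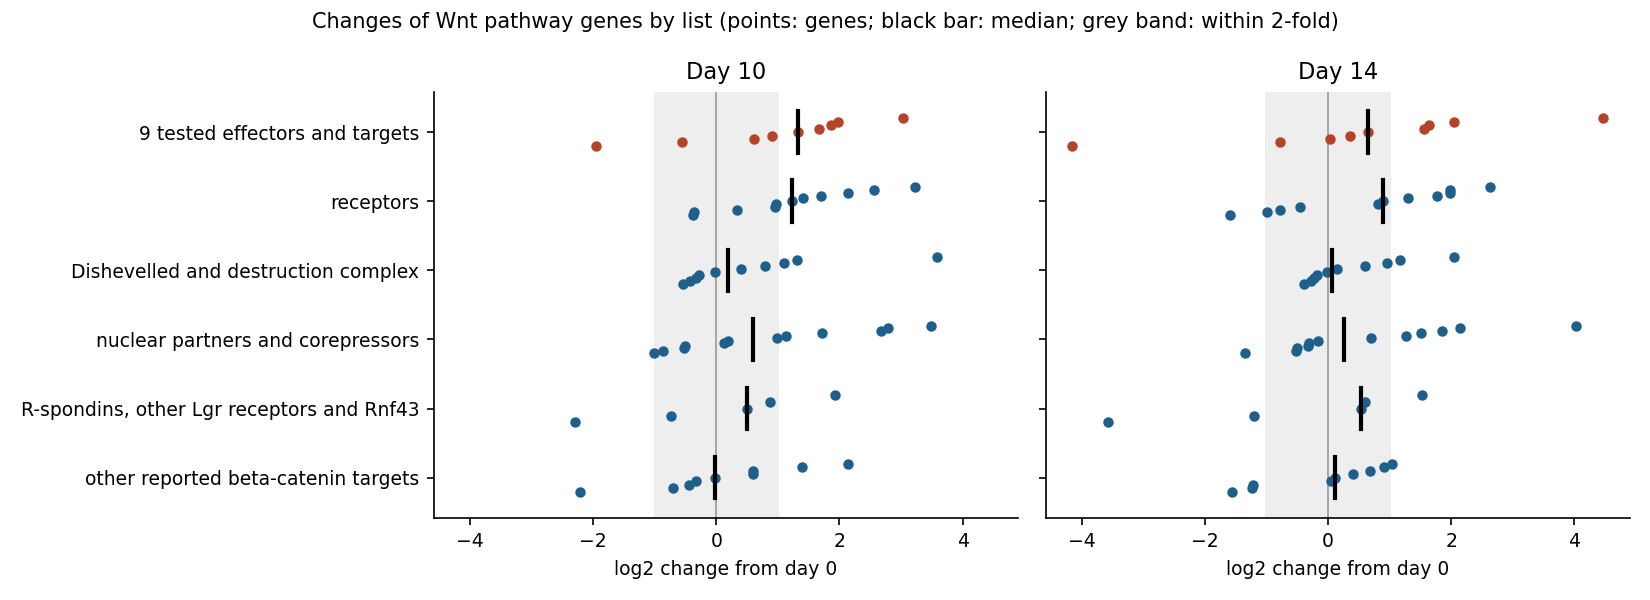
Log2 change from day 0 (horizontal axis) on days 10 and 14 of the 9 tested effectors and targets (red) and every tested gene of the 5 pathway lists (blue), 1 point per gene, with list medians as black bars and the range within 2-fold in grey. Genes at 0 counts are placed by the pseudocount. Receptors lie mostly to the right of 0 on day 10 (median 1.24) and the destruction complex list stays near 0 (median 0.19). The changes shown are not centred on genes of like length.

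The genes whose log2 changes over the 4 later days lay nearest to those of Axin2, among the 8256 genes that reached 100 expected counts in some library, were Ncald, Kif13a and Lgr4, at Euclidean distances of 0.42, 0.54 and 0.54. For Lef1 they were Epha2, Hand2 and Mcu, at 1.27, 1.36 and 1.48, which are farther off. Each distance rests on 4 changes that share the day 0 library.

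Markers of other cells changed over the same days. The 8 fibroblast markers summed to between 52272 and 99990 normalized counts, but on day 10 2 were past 2-fold higher and 3 lower, and between days 0 and 14 Col3a1 went from 1316 to 19193 and S100a4 from 8624 to 1626. The 8 Schwann cell and neural crest markers went from 111 on day 0 through 204, 1153 and 7087 to 9942 on day 14, with all 8 past 2-fold higher on days 10 and 14 and Gjc3 at 0 on day 0. The 8 macrophage markers went from 200 on day 0 to between 1622 and 3598 on the later days, with Ptprc and Cd5l at 0 on day 0. Schwann cell markers thus increased over the days on which Nkd2 did, and the part of either cell type in the changes of the Wnt genes was not tested. T lymphocytes, in which Tcf7 and Lef1 are abundant, had Cd3e and Cd3g at 0 in all 5 libraries and a marker sum between 7.71 and 12.8. Endothelial markers summed to 240 on day 0 and to between 7.15 and 21.0 later, but 236 of the day 0 sum was Kdr. The other 4 were between 0.99 and 1.27 each on day 0 and between 1.75 and 5.43 on day 2, at or under the floor of 3 counts on both days. Melanocyte markers summed to 12.5 on day 0 and to between 31.8 and 40.8 later, with Tyrp1 at 0 in all 5 libraries. Mitf, the 1 tested gene of this list, went from 6.93 on day 0 through 25.3, 35.0 and 27.8 to 25.9 on day 14. It was past 2-fold higher on all 4 later days, while Pmel went from 5.57 on day 0 to 1.86 on day 14. Epithelial markers summed to 40.6 on day 0, 315 on day 2 and 16.1 on day 14, of which Krt18 alone held 30.7, 293 and 4.47. On day 2 Cdh1, Cldn4 and Ocln were at 0, and Epcam went from 0 on day 0 to 7.15 on day 14. Neuron markers summed to between 240 and 681, with Rbfox3 at 0 in all 5 libraries. Within the neuron list Tubb3 went from 22.1 on day 0 to 161 on day 14, while Stmn2 went from 448 to 163 and Map2 from 196 to 45.6.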

How the data were processed

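RNA of ICR MEFs was sequenced at 5 time points from day 0 to day 14, with 1 library each, taken from the day in the labels. The authors deposited, per gene, expected counts from RSEM, TPM (scaled to 1000000 per library), FPKM, which was not used, and gene length in bases. Bowtie, RSEM and mm10 are named in the submitters' processing notes, and versions, annotation and strand handling are not given in the sources used here. The 27729 identifiers were matched to GENCODE M21, which gave symbols for 27247. The lists and the 10 genes were chosen with earlier results of these data known.

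Expected counts were rounded for TMM sizes (edgeR 4.0.16, R 4.3.3), and normalized counts are expected counts over effective library size, times the geometric mean of those sizes. Changes used a pseudocount of 1. The 95% intervals of changes (Clopper-Pearson, from rounded counts with no pseudocount) and of levels (Poisson) are exact and cover counting error only. No model of replicates could be fitted and no p-value is given. The pipeline was tested on simulated data. Named are the 10 genes, the 3 pathway genes with the largest absolute change on day 10 and the 3 on day 14 in each list (among genes reaching 100 expected counts in some library), the 3 genes most alike to Axin2 and to Lef1, and markers by list. Fzd3, Fzd4, Fzd10 and Apc2 are named only for their change relative to genes of like length. The requirement that an interval exclude no change and the ratio to Ctnnb1 were chosen after the values were seen. Alternatives were DESeq2 1.42.0 size factors, TPM, a pseudocount of 5, other filters on counts, TMM without Gm42418 and Lars2, and centring on all genes or on genes of like length.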

Additional observations from a re-analysis of the deposited data

How the results depend on the processing

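No paired analysis was possible because each time point has 1 library, and for the same reason no replicate could be left out. DESeq2 size factors and TMM without Gm42418 and Lars2 turned no direction and moved no change outside its counting interval, and with the former 3 of the 9 genes were past 2-fold higher on day 5. With TPM, 7 of the 9 genes were past 2-fold higher on day 10 and 5 on day 14. On day 5, on day 10 and between days 10 and 14, 0 were lower in TPM, and the median of the 9 was -0.64 on day 2 and 0.89 on day 5. Of the 47 pathway genes 2, 29 and 22 were higher in TPM on days 2, 10 and 14 and 1 lower on each of days 5, 10 and 14. In TPM the median of all tested genes itself moved by -0.20, 0.61, 1.09 and 0.78 on days 2, 5, 10 and 14. The share of all tested genes past 2-fold in TPM was not computed, so these TPM counts have no background beside them. A pseudocount of 5 left 2 of the 9 higher and 0 lower on day 5, 4 higher on day 10 (without Nkd1, 0.97) and 0 lower between days 10 and 14. Centring on genes of like length left 2 of the 9 higher on day 5 (median 0.43) and 4 on day 10 (without Nkd1, 0.54), and gave 2 lower on each of days 10 and 14, with 10 pathway genes higher and 6 lower on day 10. Centring on all tested genes left 2 of the 9 higher on day 5, where Nkd1 and Lgr5 were at 0.98 and 0.97, against 1.03 and 1.01 without centring. A filter of 100 expected counts gave 4.32% of genes lower between days 10 and 14. Nkd2 stayed past 2-fold higher on days 10 and 14 under every alternative run. Depth limits Axin2, Lef1, Nkd1, Lgr5, Tcf7 and Znrf3, which rest on at most 53.9 counts in every library. The spread between cultures is unknown.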
